A study of Homo sapiens with 15 samples.

Results

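WLS and 9 other genes of the Wnt pathway were followed in C4-2, an androgen-independent prostate cancer cell line derived from LNCaP. The 10 genes, WLS, PORCN, LRP5, LRP6, AXIN1, AXIN2, LEF1, TCF7L2, CTNNB1 and RNF43, were found by symbol among 20806 gene entries, and each matched 1 entry. WLS was chosen by its measured level, which differed between the knockout with and without wild-type ATGL put back, so its values in every comparison that uses either of those lines are a description without a test. The other 9 were chosen for their place in the pathway, but with earlier results of these data known. Their p-values are therefore not those of a choice made blind to the data. RNA was sequenced in 15 libraries, 3 from each of 5 lines that the submitters call isogenic.

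All 5 lines are C4-2 cells, plated in glucose-free RPMI1640 to which 5 mM glucose and 5% dialyzed serum were added. Scramble is the control line. KO carries a knockout of PNPLA2, which encodes adipose triglyceride lipase (ATGL), the enzyme that takes the first fatty acid off stored triglyceride. KO_WT is the knockout with wild-type ATGL put back, KO_S47A the knockout with the lipolytically inactive S47A protein, and KO_S404A the knockout with the S404A protein. KO_WT, KO_S47A and KO_S404A therefore share the knockout with KO, and Scramble alone lacks it. Each genotype is 1 line, and the sources used here do not say whether a line is a clone or a pool, nor which promoter drives the added ATGL. A difference between Scramble and the other 4 lines cannot be told apart from a difference between the cells those lines were grown from. The labels do not say whether the 3 libraries of a line came from different cultures. The spread that p-values rest on is that between these libraries and may be technical.

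Wnt proteins are secreted lipoproteins. PORCN, an acyltransferase of the endoplasmic reticulum, attaches a fatty acid to nearly every Wnt, and WLS, a multi-pass membrane carrier, binds the lipidated Wnt and takes it to the cell surface. There a Wnt bridges a Frizzled receptor and LRP5 or LRP6, which silences the complex of AXIN1, APC and kinases that otherwise marks beta-catenin (CTNNB1) for destruction. Beta-catenin then enters the nucleus and works with LEF1 and the TCF proteins, TCF7L2 among them. AXIN2 and RNF43 are widely used target genes that feed back on the pathway, AXIN2 as a second scaffold of the destruction complex and RNF43 as a ubiquitin ligase that removes Frizzled from the surface. In prostate cancer, Wnt signals have been studied as a route of growth that does not need androgen.

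The promoters of 4 genes on which the results turn are shown because they were lower (WLS, WNT5A, RNF43) or higher (TCF7L2) in the lines that carry the knockout. Each entry gives the 250 bases before a transcription start listed by RefSeq (GRCh38.p14), 5′ to 3′ on the strand of the gene. For WLS, WNT5A and RNF43 the more upstream of the 2 starts in the promoter table used here is shown, and for TCF7L2 the only 1 of its 3 windows with a match. Capitals mark a match to CTTTG followed by a pair of bases that are each A or T, the core letters bound by LEF1 and TCF proteins, searched on both strands.
WLS, chr1:68232547-68232796, minus strand: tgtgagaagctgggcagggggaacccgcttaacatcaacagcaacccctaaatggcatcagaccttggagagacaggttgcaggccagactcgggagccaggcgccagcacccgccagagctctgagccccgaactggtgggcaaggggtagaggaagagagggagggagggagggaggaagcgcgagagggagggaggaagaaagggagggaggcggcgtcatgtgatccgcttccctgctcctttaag
WNT5A, chr3:55487307-55487556, minus strand: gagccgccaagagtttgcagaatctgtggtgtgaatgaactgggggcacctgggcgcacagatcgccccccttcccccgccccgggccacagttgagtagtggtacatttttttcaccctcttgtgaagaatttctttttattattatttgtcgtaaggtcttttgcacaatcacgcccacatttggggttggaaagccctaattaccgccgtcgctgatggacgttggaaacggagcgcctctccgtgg
RNF43, chr17:58417535-58417784, minus strand: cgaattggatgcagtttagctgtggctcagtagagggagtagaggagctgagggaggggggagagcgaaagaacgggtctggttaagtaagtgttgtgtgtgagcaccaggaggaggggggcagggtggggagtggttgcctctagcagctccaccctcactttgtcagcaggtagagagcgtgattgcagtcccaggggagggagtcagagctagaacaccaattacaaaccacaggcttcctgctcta
TCF7L2, chr10:113126383-113126632, plus strand: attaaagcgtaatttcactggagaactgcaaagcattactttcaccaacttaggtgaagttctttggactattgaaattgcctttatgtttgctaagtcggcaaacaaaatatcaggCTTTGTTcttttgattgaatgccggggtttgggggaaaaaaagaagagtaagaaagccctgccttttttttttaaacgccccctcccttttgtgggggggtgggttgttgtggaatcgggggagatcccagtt

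A window of 300 bases around the start, 250 before and 50 after, was listed for 8 of the 10 genes, with none for AXIN2 and LRP6. Of 13 such windows of the 8 genes, 1 held a match, the CTTTGTT that begins 133 bases before an internal start of TCF7L2. Of all 35116 windows of that length 13.8% held one. A match of these letters is a description of the sequence and not a binding site.

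Read counts in genes were 40846694 to 64345775 per library. Levels are CPM, counts scaled to the reads in genes of a library and between libraries by TMM, with n = 3 per line and SD as the error. All 9 luminal prostate markers used here, among them KLK3 and HOXB13, stood at 132 CPM or more in every library. Of 12 markers of stroma, endothelium and blood, 7 stayed under 1 CPM in every library and CD3E was at 0. The others were COL1A1 (9.76 to 23.2 CPM), VWF (5.06 to 14.7), CD68 (7.12 to 11.0), PDGFRB (2.48 to 5.13) and COL3A1 (up to 1.07). Of 10 markers of other epithelia, 8 stayed under 1 CPM, with TP63 and KRT5 at 0. The exceptions were KRT14 (1.38 to 4.63 CPM) and HNF4A (up to 1.59). The summed luminal level was 7930.4 to 8229.6 CPM in Scramble, 5710.0 to 6692 in KO, 6714 to 7035 in KO_WT, 5782 to 7564 in KO_S47A and 5464 to 6517.5 in KO_S404A, and its part in the results below was not tested. The stromal, endothelial and blood list summed to 27.7 to 34.9 CPM in Scramble and 31.2 to 49.7 in the other lines. The list of other epithelia summed to 5.22 to 6.41 CPM in Scramble and 2.11 to 4.98 in the others.

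PNPLA2 itself stood at 48.9 ± 4.76 CPM in Scramble and 11.3 ± 1.99 in KO. With ATGL put back it stood at 219.9 ± 18.1 CPM in KO_WT, 129 ± 30.6 in KO_S47A and 413 ± 98.3 in KO_S404A. All 9 libraries of these 3 lines lay above Scramble, at levels that differed between the lines.

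WLS, the carrier that Wnts need for release, was at its highest in Scramble and at its lowest in the knockout. Its level was 20.8, 20.9 and 21.1 CPM in the 3 Scramble libraries and 6.12, 5.26 and 5.55 CPM in KO. The Scramble libraries were nearly equal, and the highest of the other 12 libraries reached 14.7 CPM. With wild-type ATGL put back WLS stood at 14.7, 12.5 and 10.9 CPM, with the S404A protein at 11.8, 12.3 and 10.7 CPM, and with the inactive S47A protein at 7.91, 7.97 and 7.34 CPM. In order of level the lines were Scramble (20.9 ± 0.133 CPM), KO_WT (12.7 ± 1.91), KO_S404A (11.6 ± 0.832), KO_S47A (7.74 ± 0.347) and KO (5.65 ± 0.439). KO_WT and KO_S404A overlapped, and no other neighbours in that order did. No line that carried an added ATGL reached the lowest Scramble library. PNPLA2 RNA had another order, with KO_S404A above KO_WT. In bulk RNA, fewer cells with a transcript and less of it per cell cannot be told apart.

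**Figure D1:**
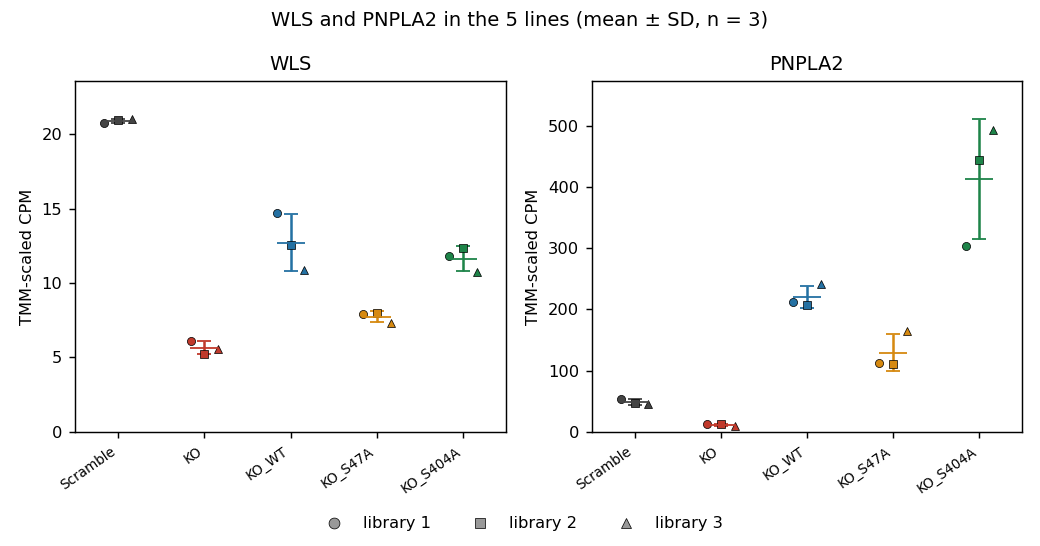
WLS (left) and PNPLA2 (right) in TMM-scaled CPM on a linear axis from 0. Points are libraries, with a symbol per library number, and bars are the mean ± SD of 3 libraries. WLS lies at 20.8 to 21.1 CPM in Scramble, at 5.26 to 6.12 in KO and between 7.34 and 14.7 in the 3 lines with an added ATGL, while PNPLA2 is highest in KO_S404A.

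WLS was tested where neither KO nor KO_WT enters. It fell in KO_S47A against Scramble by 1.43 on the log2 scale (SE 0.12, 95% interval −1.70 to −1.17, edgeR adjusted p = 9.31e-06), which is 2.70-fold lower. It fell in KO_S404A against Scramble by 0.85 (SE 0.12, interval −1.11 to −0.58, adjusted p = 0.00104). Both calls held when any 1 of the 6 libraries was left out, with differences of −1.46 to −1.41 for KO_S47A and −0.89 to −0.79 for KO_S404A. Between the 2 mutant lines WLS was 0.59 higher in KO_S404A than in KO_S47A (SE 0.12, interval 0.32 to 0.85), and the 3 libraries of each did not overlap. Adjusted over all genes, that difference did not pass edgeR's test (adjusted p = 0.679). It passed only that of DESeq2 (adjusted p = 0.0175). In edgeR it also failed with the library number as a block, with other size factors, without the filter on low counts and from libraries 1 and 2 only. Without any 1 of the 6 libraries edgeR did not call it either (adjusted p 0.111 to 0.998). In that comparison edgeR called 1 gene of 14246, or 0.00702%.

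The differences that involve KO or KO_WT are given as values. On the log2 scale WLS was −1.89 in KO and −0.72 in KO_WT, each against Scramble. Against KO it was 1.17 in KO_WT, 1.04 in KO_S404A and 0.46 in KO_S47A. Wild-type against S47A gave 0.72 and S404A against wild-type gave −0.13 (interval −0.40 to 0.14). The 20 tested genes nearest to WLS on its chromosome had median differences against Scramble of −0.12 (KO), −0.01 (KO_WT), 0.03 (KO_S47A) and −0.09 (KO_S404A), all much smaller than that of WLS. An antisense gene, GNG12-AS1, overlaps WLS in RefSeq and has no entry in the files. The strand setting of the counting is not given, so reads from the 2 could not be told apart.

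Of the 10 genes, WLS stood in the middle of the range of abundance. Per kilobase of gene model, the mean level over the 15 libraries was 45.7 CPM for CTNNB1, 22.3 for LRP5, 10.4 for AXIN1 and 4.22 for LRP6. WLS followed at 3.56 CPM per kilobase, ahead of PORCN (2.91), TCF7L2 (2.59), RNF43 (1.84), LEF1 (1.36) and AXIN2 (0.782). The target gene AXIN2 was thus the least abundant of the 10 and beta-catenin the most abundant.

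PORCN, which lipidates the Wnts that WLS carries, had no difference between lines that passed the test. Its level was 9.11, 7.99 and 4.61 CPM in Scramble and 7.19, 6.41 and 5.78 in KO. With wild-type ATGL put back it was 10.3, 9.40 and 5.15 CPM, with S47A 10.04, 9.13 and 5.51, and with S404A 10.7, 8.27 and 5.29. All 5 lines overlapped, and library 3 was the lowest in each. No comparison called it, and against Scramble the log2 differences were −0.16 to 0.20 with an SE of 0.33.

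The co-receptors LRP5 and LRP6, which Wnts engage beside Frizzled, stood at similar levels in the 5 lines. LRP5 ranged from 104 to 145 CPM over all libraries, with line means of 111 (KO_S47A) to 129.9 (KO_S404A). LRP6 ranged from 37.4 to 48.7 CPM, with line means of 39.4 (KO_WT) to 45.6 (KO_S404A). Neither was called in any of the 10 comparisons. Their 95% intervals against Scramble lay within −0.37 to 0.39 for LRP5 and −0.29 to 0.34 for LRP6 on the log2 scale.

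RNF43, the ligase that clears Frizzled receptors, was lower in all 4 lines that carry the knockout. Its level was 15.8, 18.8 and 16.8 CPM in Scramble and 10.6, 10.3 and 10.1 in KO. The lines with added ATGL stood at 9.35, 9.18 and 10.3 CPM (KO_WT), 7.49, 7.56 and 12.0 (KO_S47A) and 8.71, 11.3 and 9.84 (KO_S404A). None of these 12 libraries reached the lowest Scramble library, and the 4 lines overlapped each other. How many of all tested genes have such a gap was not counted. Here and for the genes below, the gap is therefore a description of the libraries. Against Scramble RNF43 fell by 0.73 in KO (edgeR adjusted p = 0.0299), by 0.84 with wild-type ATGL (0.0115), by 0.93 with S47A (0.00588) and by 0.79 with S404A (0.0186), with an SE of 0.17. These 4 comparisons share the 3 Scramble libraries. Among all genes tested, edgeR called 2.69% (KO), 3.47% (KO_WT), 3.82% (KO_S47A) and 3.11% (KO_S404A). The call in KO_S47A held without any 1 library. That in KO was lost without any 1 of its 6 libraries (adjusted p 0.0589 to 0.124). The call in KO_WT was lost without Scramble 2 (0.0527), KO_WT 1 (0.0590) or KO_WT 2 (0.0571), and that in KO_S404A without Scramble 2 (0.0708), Scramble 3 (0.0531), KO_S404A 1 (0.0740) or KO_S404A 3 (0.0522). Against KO the differences were −0.11 in KO_WT (interval −0.48 to 0.27), −0.20 in KO_S47A (−0.58 to 0.18) and −0.06 in KO_S404A (−0.43 to 0.32), and none was called. RNF43 overlaps the antisense gene TSPOAP1-AS1 in RefSeq.

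Among the scaffolds and beta-catenin, AXIN1 stood at line means of 32.0 (KO_S47A) to 39.8 CPM (KO), and its libraries overlapped between all pairs of lines. Its log2 differences against Scramble were −0.14 to 0.18, none called. CTNNB1 stood at 304, 306 and 319 CPM in Scramble and 337, 350.1 and 369 in KO. The 2 lines did not overlap for CTNNB1, but the difference of 0.19 (interval −0.04 to 0.41) was not called (edgeR adjusted p = 0.502). In the lines with added ATGL it ranged from 292 to 363 CPM. Both genes were highest in library 3 in each of the 5 lines.

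AXIN2, the feedback scaffold, did not pass the edgeR test against Scramble in any line. It was lower than Scramble in all 12 libraries of the other lines, a gap that was not counted over all genes. Its level was 4.38, 5.24 and 5.30 CPM in Scramble, 3.43, 3.98 and 3.40 in KO, and 3.83, 3.16 and 3.00 in KO_WT. It was 3.34, 3.62 and 3.35 CPM in KO_S47A and 3.72, 3.80 and 4.35 in KO_S404A, where library 3 came closest to the lowest Scramble library. Against Scramble the differences were −0.46 in KO (edgeR adjusted p = 0.148), −0.58 with wild-type ATGL (0.05, not under the threshold), −0.53 with S47A (0.0635) and −0.33 with S404A (0.294), with an SE of 0.15. With the library number as a replicate block the adjusted p was 0.0259 in KO_WT and 0.0238 in KO_S47A. DESeq2 gave 0.0445 in KO, 0.00600 in KO_WT and 0.0105 in KO_S47A.

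TCF7L2, a nuclear partner of beta-catenin, was higher in all 4 knockout lines than in Scramble, past the test in 2 of them. Its level was 9.38, 9.38 and 10.2 CPM in Scramble and 16.8, 12.8 and 13.4 in KO. With wild-type ATGL put back it was 12.2, 11.0 and 13.4 CPM, with S47A 12.7, 13.1 and 13.5, and with S404A 13.1, 14.5 and 15.9. Every one of these 12 libraries lay above the highest Scramble library. Against Scramble it rose by 0.57 in KO (SE 0.12, edgeR adjusted p = 0.0235) and by 0.59 in KO_S404A (0.0181). The differences of 0.34 in KO_WT (0.182) and 0.44 in KO_S47A (0.0656) did not pass. The latter had an adjusted p of 0.0159 with the replicate block and 0.02545 with DESeq2. The call in KO was lost without Scramble 1 (0.108), Scramble 2 (0.111) or KO 1 (0.110). The call in KO_S404A was lost without Scramble 1 (0.0875), Scramble 2 (0.0828), KO_S404A 2 (0.0501) or KO_S404A 3 (0.0625). The 20 tested genes nearest to TCF7L2 had medians of −0.04 to 0.08 in the 4 comparisons.

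LEF1, another nuclear partner and itself a Wnt target, was not called in any comparison. Its level was 6.61, 6.07 and 7.78 CPM in Scramble, 5.88, 5.35 and 6.64 in KO and 3.83, 3.87 and 5.60 in KO_WT. It was 3.00, 3.96 and 5.59 CPM in KO_S47A and 3.16, 5.27 and 5.86 in KO_S404A. The 3 lines with added ATGL lay below Scramble, and library 3 was the highest in every line. Against Scramble the differences were −0.20 in KO (edgeR adjusted p = 0.848), −0.62 with wild-type ATGL (0.266), −0.71 with S47A (0.152) and −0.52 with S404A (0.354), with an SE of 0.26. With the replicate block LEF1 was called in KO_WT (adjusted p = 0.0277) and KO_S47A (0.00900), and in KO_S47A also without its library 3 (0.0433). LEF1 overlaps the antisense gene LEF1-AS1 in RefSeq.

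**Figure D2:**
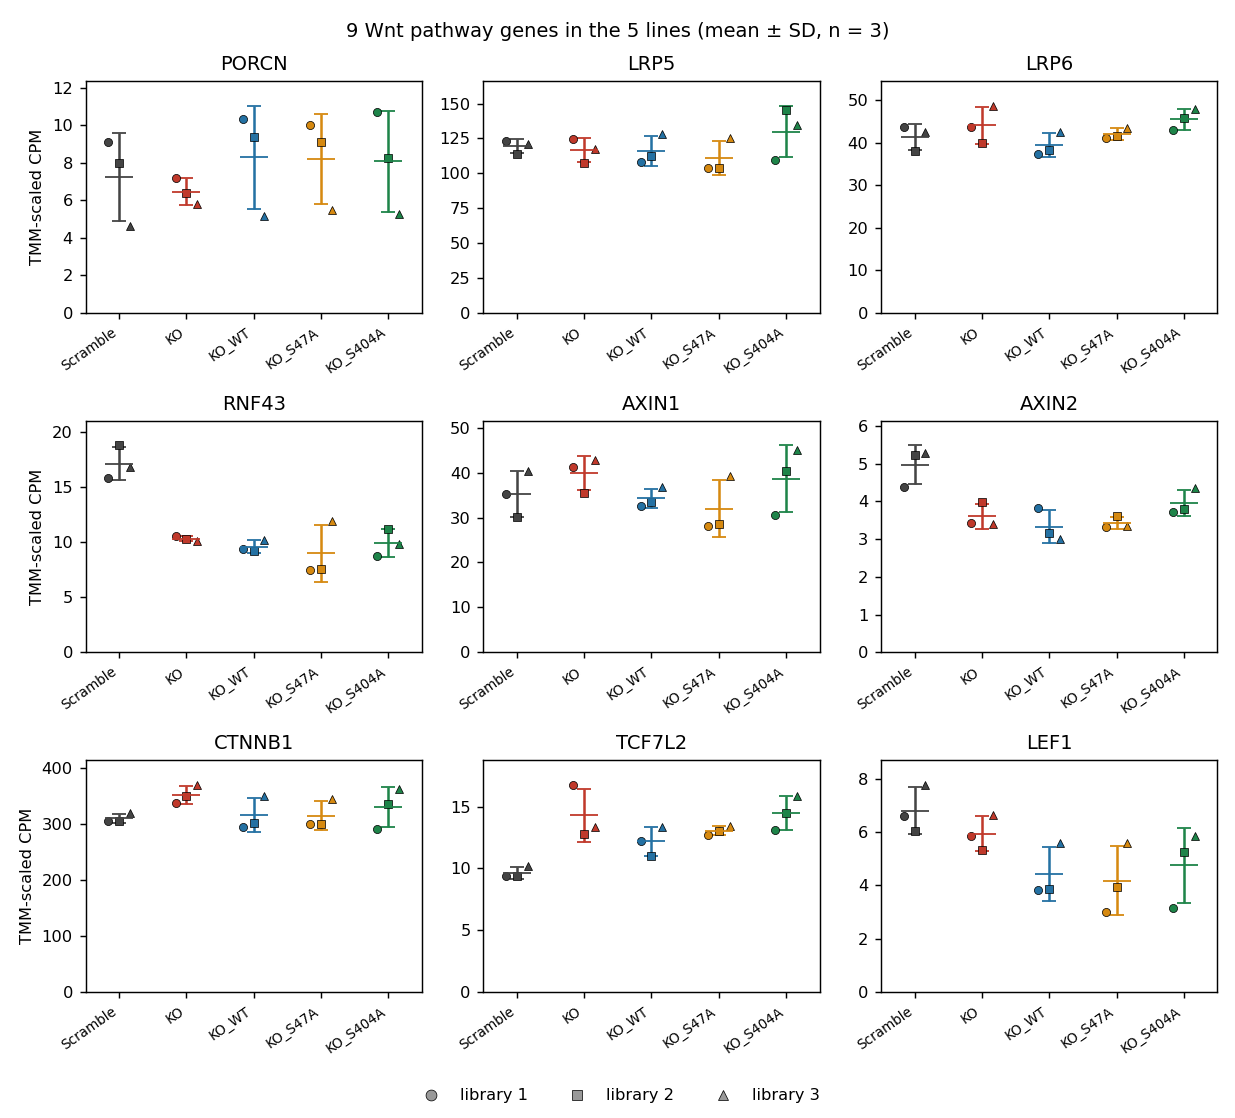
The other 9 genes in TMM-scaled CPM, a panel per gene on its own linear axis from 0, with points for libraries and bars for the mean ± SD of 3 libraries. The Scramble points do not overlap those of the other lines for RNF43, AXIN2 and TCF7L2. The share of all tested genes with such a gap was not counted. Library 3 (triangles) is the lowest for PORCN and the highest for AXIN1, CTNNB1 and LEF1 in all 5 lines.

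For several of these genes library 3 stood apart from libraries 1 and 2 of its line, and the cause was not tested. Against libraries 1 and 2 of the same line, library 3 had a median log2 difference over the 5 lines of −0.82 for PORCN, 0.52 for LEF1, 0.31 for AXIN1 and 0.20 for CTNNB1. Line by line, in the order Scramble, KO, KO_WT, KO_S47A, KO_S404A, PORCN in library 3 fell by 0.88, 0.23, 0.93, 0.79 and 0.82. WLS (−0.11), RNF43 (−0.01), AXIN2 (−0.05), TCF7L2 (0.12), LRP5 (0.10) and LRP6 (0.11) had medians nearer 0. Single lines lay further out, such as RNF43 in KO_S47A, where library 3 was 0.67 higher. Among ligands and receptors, WNT7B (0.58), WNT10B (0.39) and FZD1 (0.61) were also highest in library 3 of each line, while FZD7 (−1.22) and FZD2 (−0.53) were lowest there.

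**Figure D3:**
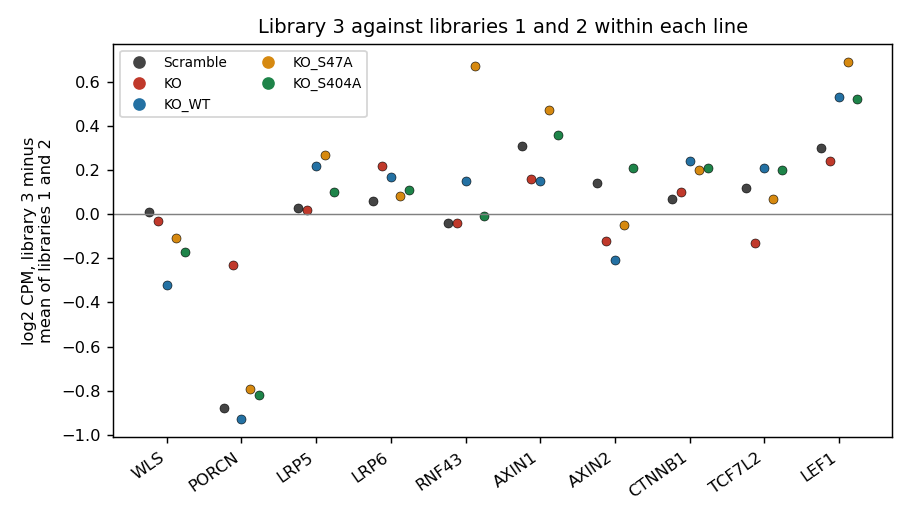
Log2 difference of library 3 from the mean of libraries 1 and 2, a point per line, for the 10 genes. PORCN lies below 0 and LEF1, AXIN1 and CTNNB1 above 0 in all 5 lines, while WLS stays between −0.32 and 0.01.

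The wider pathway was read from a list of 105 genes, of which 104 have an entry in the files and 76 passed the filter on low counts, all 10 genes above among them. The 28 that did not pass reached 0.411 CPM at most in any library and were not tested. Without WLS, 75 genes were tested. In KO against Scramble 6 of these 75 were called, 1 higher and 5 lower, where 0.969% of all tested genes were higher and 1.72% lower. KO_WT had 8 calls, 2 higher and 6 lower (1.51% and 1.96% of all genes). KO_S47A also had 8, 1 higher and 7 lower (1.59% and 2.23%). KO_S404A had 7, 2 higher and 5 lower (1.34% and 1.77%). The median of the whole list was 0.03, −0.06, −0.08 and 0.07 in that order, beside 0.02, 0.01, 0.02 and 0.03 over all tested genes. With the library number as a replicate block the calls among the 75 were 20 in KO_WT and 24 in KO_S47A, where the block called 10.0% and 19.5% of all tested genes. From libraries 1 and 2 alone it was 20 in KO_S47A, where that fit called 15.0% of all tested genes. Leaving out 1 library also moved the count among the 75. In KO it went to 3 without Scramble 1, Scramble 2 or KO 1 and to 4 without Scramble 3, KO 2 or KO 3. In KO_WT it went to 3 without Scramble 2, Scramble 3, KO_WT 1 or KO_WT 2 and to 5 without Scramble 1. Without KO_WT 3 it was 6. In KO_S47A it went to 5 without Scramble 1, Scramble 3, KO_S47A 1 or KO_S47A 2. It went to 7 without Scramble 2 and rose to 11 without KO_S47A 3. In KO_S404A it went to 3 without Scramble 2 and to 4 without Scramble 3, KO_S404A 1 or KO_S404A 2. Without Scramble 1 or KO_S404A 3 it was 5. Over all tested genes the count moved as well, to 205 to 291 in KO and 240 to 440 in KO_WT. It was 234 to 984 in KO_S47A and 240 to 374 in KO_S404A.

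Among the 19 ligand genes 10 passed the filter. In the edgeR fit of all 15 libraries without the replicate block, WNT5A was the only one called in any comparison. WNT5A, best known for signals that do not use beta-catenin, stood at 14.1, 19.0 and 15.5 CPM in Scramble and at 5.48 to 8.79 CPM in the 12 other libraries. Scramble did not overlap them, and the 4 lines overlapped each other. It fell against Scramble by 1.30 in KO (edgeR adjusted p = 0.00110), 1.15 with wild-type ATGL (0.00272), 1.27 with S47A (0.00138) and 1.20 with S404A (0.00191), with an SE of 0.18. Each of these calls held without any 1 library, and none of the lines with added ATGL was called against KO. The 20 nearest tested genes had medians of −0.01 to 0.02. RefSeq places the antisense gene WNT5A-AS1 over WNT5A, ZNRF3-AS1 over ZNRF3 and the readthrough gene TPTEP2-CSNK1E over CSNK1E.

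WNT7B and WNT10B, 2 ligands of the beta-catenin branch, were more abundant than WNT5A, at 7.61 and 9.21 CPM per kilobase over all libraries against 1.49. WNT7B stood at 43.2, 36.2 and 57.0 CPM in Scramble and 14.9, 14.5 and 33.0 in KO_S47A. The 2 lines did not overlap, but with the spread between libraries the difference of −1.13 (SE 0.35) was not called (edgeR adjusted p = 0.0976, replicate block 0.00169). DESeq2 also called WNT7B lower in KO_S47A against Scramble, and the replicate block called WNT10B lower there. Besides WNT5A, libraries 1 and 2 alone called WNT7A, WNT7B and WNT10B lower in that comparison, where that fit called 15.0% of all tested genes. In KO_WT against Scramble the difference of WNT7B was −0.86 (0.256, replicate block 0.0162).

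Of the 14 tested receptors, FZD4 fell in all 4 lines against Scramble. FZD4, a Frizzled that also binds the ligand norrin, stood at 45.0, 46.0 and 50.4 CPM in Scramble and 28.3 to 33.6 CPM in the 12 others. The differences were −0.54 in KO (edgeR adjusted p = 0.00411), −0.64 with wild-type ATGL (0.00116), −0.64 with S47A (0.00131) and −0.61 with S404A (0.00172), and each call held without any 1 library. FZD4 overlaps PRSS23 in RefSeq, which has its own entry in the files at 2.20 to 5.87 CPM. In KO_WT against Scramble FZD6 rose by 0.56 (adjusted p = 0.01999) and the co-receptor PTK7 by 0.55 (0.0331). The FZD6 call was lost without any library other than KO_WT 3 (0.0610 to 0.136), and that of PTK7 without any other than KO_WT 2 (0.0729 to 0.165). With the replicate block FZD6 was also called in KO_S47A (0.46, adjusted p = 0.00824), and PTK7 in KO (0.31, 0.0219) and KO_S47A (0.41, 0.00220). In all, the block called 8 of the 14 receptors in KO_WT against Scramble, where it called 10.0% of all tested genes. FZD2, FZD6, FZD7 and PTK7 were higher, and FZD1, FZD4, FZD5 and ROR1 were lower. In KO_S47A it called 7 of the 14, the same genes without ROR1, where it called 19.5% of all tested genes.

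Besides RNF43, its paralog ZNRF3 fell in KO_S47A against Scramble (−0.74, edgeR adjusted p = 0.0432), a call lost without Scramble 1 (0.0885), Scramble 3 (0.195), KO_S47A 1 (0.187) or KO_S47A 2 (0.163). In KO_WT it was called with the replicate block (−0.66, adjusted p = 0.00169). Among the 5 tested inhibitors, APCDD1, a membrane-bound Wnt antagonist that is also a target gene, fell in all 4 lines. It stood at 2.65 to 3.73 CPM in Scramble and 0.797 to 2.05 CPM in the others. The difference was −1.79 in KO_S47A (adjusted p = 0.00274), which held without any 1 library. The differences of −1.12 in KO (0.0459) and −1.10 in KO_S404A (0.0460) were lost without any 1 of their 6 libraries (0.0607 to 0.200 and 0.0514 to 0.149). In KO_WT the difference was −1.08 (0.0474), lost without any library but KO_WT 1 (0.0591 to 0.170).

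Of the 23 tested genes of the cytoplasmic relay, CSNK1E, a casein kinase that acts on Dishevelled, fell in KO_WT (−0.37, edgeR adjusted p = 0.0142) and KO_S47A (−0.42, 0.00631). The first call was lost without Scramble 3 (0.0765), KO_WT 1 (0.0593) or KO_WT 2 (0.0655). With the replicate block it was also called in KO (−0.28, adjusted p = 0.0203). NKD2, which binds Dishevelled, rose in KO_S404A against Scramble (0.83, 0.0203), a call lost without Scramble 2 (0.0947), Scramble 3 (0.0977), KO_S404A 1 (0.0631) or KO_S404A 2 (0.0773). With the block NKD2 was also called in KO_S47A (0.52, adjusted p = 0.0303).

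Of the 13 tested nuclear factors, CBY1, which binds beta-catenin and opposes it, fell in all 4 lines. It stood at 94.6, 108 and 99.1 CPM in Scramble and 56.0 to 79.9 CPM in the 12 others. The differences were −0.55 in KO (edgeR adjusted p = 0.00685), −0.46 with wild-type ATGL (0.0175), −0.41 with S47A (0.0331) and −0.69 with S404A (0.00141). The calls in KO and KO_S404A held without any 1 library. The call in KO_S47A was lost without any 1 (0.0612 to 0.126), and the call in KO_WT without any but Scramble 1 (0.0572 to 0.0902). Among 12 tested feedback targets, which include RNF43, ZNRF3 and APCDD1, TNFRSF19 alone rose, in KO_S47A (0.67, 0.0465), and that call was lost without any 1 library (0.0557 to 0.190). With the block TNFRSF19 was also called in KO_WT (0.53, adjusted p = 0.00695). CCND1, the cyclin often read as a Wnt target, was not called against Scramble.

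CBY1, CSNK1E and ZNRF3, like WNT7B, lie on chromosome 22, which was lower as a whole in these lines. The other of the 5 tested list genes there, KREMEN1, had similar means in all lines. It stood at 27.8 CPM in Scramble and at 25.6 (KO_S47A) to 28.8 CPM (KO_S404A) in the others. The median of the 375 tested genes of chromosome 22, against Scramble, was −0.32 (KO), −0.38 (KO_WT), −0.33 (KO_S47A) and −0.28 (KO_S404A), beside 0.02 to 0.03 for all other genes. The log2 differences of CSNK1E (−0.28 to −0.42) were close to those medians. That of CBY1 in KO_S404A (−0.69) and that of ZNRF3 in KO_S47A (−0.74) lay further from 0. The 20 tested genes nearest to CSNK1E had medians of −0.39 (KO), −0.30 (KO_WT), −0.08 (KO_S47A) and −0.16 (KO_S404A), and CSNK1E lay furthest below its neighbours in KO_S47A. Those nearest to CBY1 had medians of −0.28, −0.13, −0.08 and −0.07 in that order, and those nearest to ZNRF3 had −0.28 in KO and −0.37 in each of the other 3 lines. The part of the chromosome in the results of these genes was not tested. WLS, RNF43, TCF7L2, WNT5A, FZD4 and APCDD1 lie on other chromosomes.

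**Figure D4:**
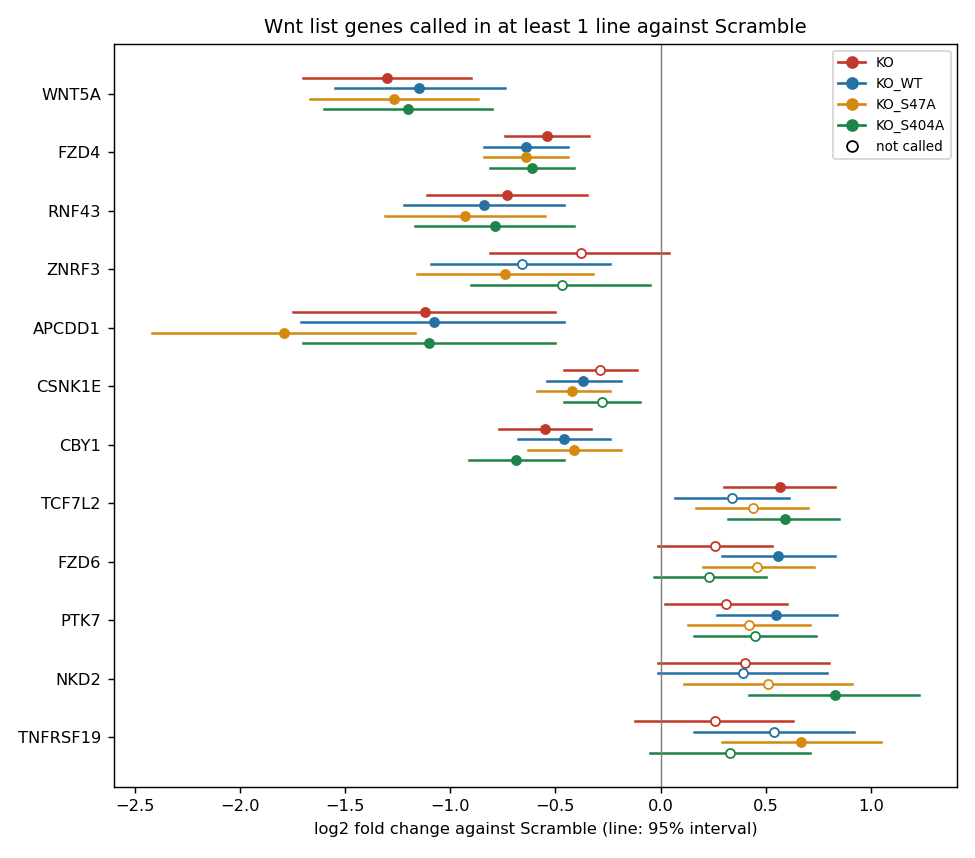
Log2 fold changes against Scramble for the 12 genes of the pathway list, other than WLS, called in at least 1 of the 4 lines, with 95% intervals. Filled points passed an edgeR adjusted p of 0.05 and open points did not. WNT5A, FZD4, RNF43, APCDD1 and CBY1 are filled and below 0 in all 4 lines.

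Between the knockout and the lines with ATGL put back, edgeR called 0 of the 75 pathway genes without WLS, in the fit of all 15 libraries without the block. The count at an unadjusted p under 0.05 against KO was 3 of 75 for KO_WT, 8 for KO_S47A and 1 for KO_S404A. The share of all tested genes at that unadjusted threshold was not counted, so these counts give no reading of the pathway. DESeq2 also called 0 of these 75. Few genes of any kind were called there, 4 of 14246 in KO_WT against KO (0.0281%), 1 in KO_S47A (0.00702%) and 3 in KO_S404A (0.0211%).

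The comparison of KO_S47A with KO depended on the replicate block. Deviations of same-numbered libraries of these 2 lines correlated at 0.21 (library 1), 0.15 (library 2) and 0.43 (library 3). These values cannot show that libraries 1 and 2 are paired, so the block calls rest on a pairing that is not established. With the block 13 pathway genes other than WLS were called, 2 higher and 11 lower, where the block called 22.1% of all tested genes, 10.6% higher and 11.5% lower. The 13 are 17.3% of the 75, which is below that background. The ligands WNT7B (−0.85, adjusted p = 0.0138) and WNT10B (−0.42, 0.0300) were lower. The receptors FZD1 (−0.57, 0.0114) and FZD5 (−0.53, 0.0253) were lower and FZD7 was higher (0.68, 0.0222). AXIN1 (−0.33, 0.0438) and LEF1 (−0.54, 0.0339) were lower, as was CCND1 (−0.48, 0.0205), which stood at 293, 259 and 269 CPM in KO and 177, 185 and 230.4 in KO_S47A. Also lower were ZNRF3 (−0.38, 0.0293), AMER1, a regulator of the destruction complex (−0.49, 0.0265), NKD1 (−0.79, 0.0427) and the beta-catenin cofactor PYGO2 (−0.37, 0.0224), and TNFRSF19 was higher (0.42, 0.0173). In the fit of all 15 libraries without the block none of the 13 was called. Libraries 1 and 2 alone gave 15 calls among the 75, 10 of them shared with the 13, where that fit called 21.6% of all tested genes.

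Among the 3 lines with ATGL put back, edgeR called 0 of the 75 genes in KO_WT against KO_S47A, 0 in KO_S404A against KO_WT and 0 in KO_S404A against KO_S47A. At an unadjusted p under 0.05 the counts were 1, 8 and 10. These too have no share of all tested genes beside them and give no reading of the pathway. DESeq2 called 0 of these 75. In the whole table edgeR called 0% of genes in the first 2 and 0.00702% in the last. In KO_WT against KO_S47A the widest 95% interval among the 9 genes other than WLS was that of PORCN, −0.70 to 0.72, and the narrowest that of LRP6, −0.29 to 0.11. For RNF43 it was −0.29 to 0.47, for AXIN2 −0.38 to 0.29 and for TCF7L2 −0.37 to 0.17.

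The genes whose pattern was most like that of WLS over the 15 libraries were CCDC85A (Pearson r = 0.93), SLC23A1 (0.92), COL12A1 (0.88), C10orf4 (0.86) and B3GAT3 (0.86), among the 12084 tested genes whose mean level was 1 CPM or more. The most opposite were PCDH7 (−0.95), ECD (−0.87) and CBLN2 (−0.87). The 15 points fall into 5 lines and share libraries, so these values describe the pattern and carry no p. CCDC85A stood at 20.6 to 32.4 CPM in Scramble, 0.612 to 0.863 in KO, 2.40 to 3.25 in KO_WT, 1.16 to 1.63 in KO_S47A and 2.17 to 2.61 in KO_S404A. It has the order of WLS, with a deeper fall. SLC23A1, a vitamin C transporter, stood at 3.70 to 4.17 CPM in Scramble, 1.61 to 1.62 in KO, 2.49 to 2.89 in KO_WT, 1.67 to 1.90 in KO_S47A and 1.91 to 2.63 in KO_S404A. PCDH7, a protocadherin, mirrored WLS at 8.72 to 15.7 CPM in Scramble, 58.6 to 59.99 in KO, 19.9 to 23.7 in KO_WT, 45.2 to 61.1 in KO_S47A and 27.0 to 32.1 in KO_S404A. None of these 8 genes belongs to the pathway list.

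**Figure D5:**
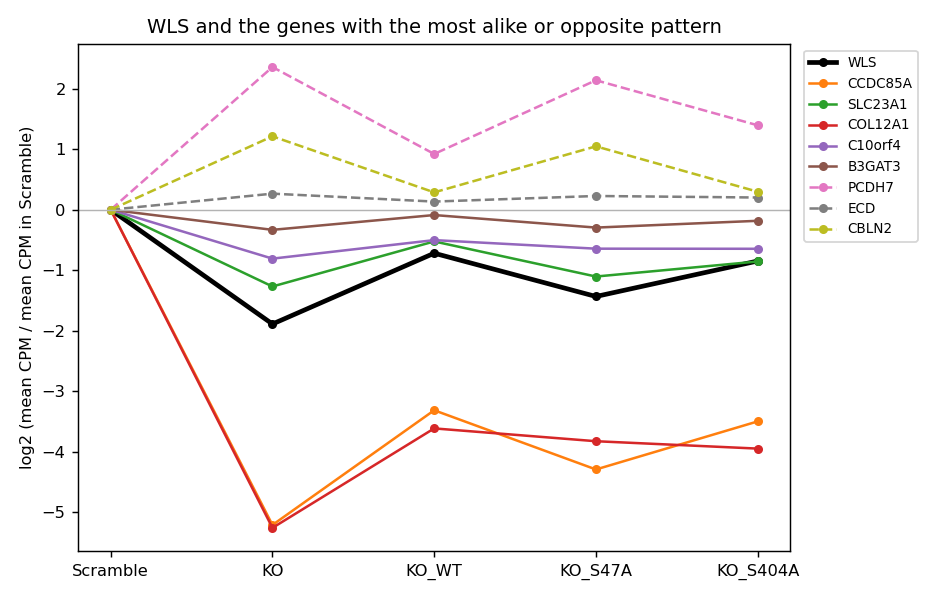
Line means of WLS, the 5 genes most like it and the 3 most opposite, as log2 difference from Scramble, a line per gene over the 5 cell lines. WLS, CCDC85A and SLC23A1 are lowest in KO and higher in KO_WT and KO_S404A than in KO_S47A, and PCDH7 runs the other way.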

How the data were processed

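Poly(A) RNA was sequenced from 15 libraries of C4-2 lines, with a directional kit per the labels' protocols. The authors deposited whole-number read counts per gene, not normalized, made with CASAVA and STAR per the submitters' processing notes, which give no version. For the genome build, annotation release, aligner settings and strand setting, the sources used here give nothing. The FPKM values that the authors deposited beside the counts served only to recover gene lengths. Unassigned reads (13.2% to 20.6% of a library) were left out.

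Genes with low counts were removed with filterByExpr, which left 14246, with TMM scaling of library sizes. The quasi-likelihood fit used 1 mean per line and took in all 15 libraries (edgeR 4.0.16, R 4.3.3; 10 residual degrees of freedom), and 10 comparisons between lines were tested. Called means a Benjamini-Hochberg adjusted p under 0.05 over all genes tested in the comparison, two-sided, and adjusted p-values in parentheses come from this test unless another is named. The SE was approximated from the fold change and its F statistic. The 95% intervals given here use the 10 residual degrees of freedom. The median 95% halfwidth over all genes was 0.36 on the log2 scale with the degrees of freedom that edgeR borrows across genes added. For the same SE the intervals given here are wider. The fit was tested on simulated data. Libraries of a line differed by more than sampling noise (chi-square per degree of freedom of 8.11 to 239).

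Replicate numbers come from the titles. Deviations of same-numbered libraries correlated at over 0.1 for all 3 numbers in 8 of the 10 comparisons, so there the fit with the number as a block stands beside results it changes. The exceptions were KO_S404A against KO and against Scramble. Deviations were taken from the mean of a line and cancel within it. A shift shared by library 3 alone therefore also raises the correlations of libraries 1 and 2. For that reason the check cannot show that libraries 1 and 2 are paired between lines. Other alternatives were DESeq2 1.42.0, other size factors (RLE), no filter, libraries 1 and 2 only, and leaving out each library.

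The genes and lists were chosen with earlier results of these data known. The text names the 10 genes, PNPLA2, pathway list genes called in any comparison, and the 5 most and 3 least correlated genes with WLS (log2 CPM, prior count 2). Genes called only with the block or in another alternative fit are named after their values were seen. KREMEN1 is named as a tested list gene of chromosome 22. Gene names were matched through RefSeq by gene ID. The files call AMER1 FAM123B. A luminal marker of the list is not reported here.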

Additional observations from a re-analysis of the deposited data

How the results depend on the processing

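The alternatives were RLE size factors, DESeq2, no filter on low counts, the replicate block and libraries 1 and 2 only. Under them, pathway gene calls of the edgeR fit of all 15 libraries without the block held except for APCDD1 and TNFRSF19. No value called in that fit changed sign. Genes called only with the block or in another alternative are not covered by this statement. APCDD1 was lost in KO (libraries 1 and 2 only, adjusted p = 0.0638) and KO_WT (no filter, 0.0529, and libraries 1 and 2 only, 0.167), and TNFRSF19 in KO_S47A (no filter, 0.0525), each against Scramble. AXIN2 in KO_WT passed under RLE (0.0447) and LEF1 in KO_S47A on libraries 1 and 2 (0.0332). Counts of called genes were within 1.5 times of those reported under RLE and without the filter. DESeq2 called 693 genes for KO, 868 for KO_WT, 1093 in KO_S47A and 894 in KO_S404A against Scramble, with 15 of the pathway list in KO_S47A. It called 8 in KO_WT, 33 in KO_S47A and 8 in KO_S404A against KO, 4 in KO_WT against KO_S47A (1 of the list) and 2 in KO_S404A against KO_S47A (1 of the list).

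With the replicate block the counts against Scramble were 1181 for KO, 1429 for KO_WT (21 of the list), 2783 in KO_S47A (25 of the list) and 1522 in KO_S404A (13 of the list). Against KO the block gave 15 in KO_WT, 3150 in KO_S47A (14 of the list) and 14 in KO_S404A, and between the added proteins 3 in KO_WT against KO_S47A (1 of the list) and 2 in KO_S404A against KO_S47A. In KO_S404A against Scramble and against KO the libraries share only a number, with lowest correlations of 0.07 and 0.02. Of 15 libraries, 9 correlated best with their own number. The block changed no other call of the 10 genes than those given in the report.

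Libraries 1 and 2 alone gave 770 genes in KO, 2158 in KO_S47A (21 of the list) and 981 in KO_S404A against Scramble, 43 in KO_WT, 3098 in KO_S47A (16 of the list) and 403 in KO_S404A against KO, and 2 in KO_WT against KO_S47A. Of the 9 genes other than WLS, those called there from libraries 1 and 2, in KO_S47A against KO, were PORCN (0.49, adjusted p = 0.0431), AXIN1 (−0.44, 0.0422) and RNF43 (−0.47, 0.0406). The cause of these shifts was not tested.

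Without 1 library at a time the genes called against Scramble numbered 205 to 291 for KO, 240 to 440 for KO_WT, 234 to 984 in KO_S47A and 240 to 374 in KO_S404A, with 4 to 5, 4 to 7, 6 to 12 and 4 to 6 of the list. Against KO they numbered 3 to 5 in KO_WT (1 of the list throughout), 1 to 15 in KO_S47A and 1 to 4 in KO_S404A (0 to 1 of the list). In KO_S404A against KO_S47A they numbered 0 to 1. WLS is part of these list counts, and in every comparison with KO or KO_WT its part in them is a description. The 28 list genes that were not tested reached 0.411 CPM at most.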
